A study of Mus musculus with 31 samples.

Results

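Of the EGF family ligands and ERBB receptors, 8 genes were followed through all 3 count tables of the series, 5 ligands (*Areg*, *Ereg*, *Hbegf*, *Tgfa* and *Btc*) and 3 receptors (*Egfr*, *Erbb2* and *Erbb3*). They were taken by symbol, with the entry of most counts where a symbol had several, out of 55487, 56980 and 56941 genes in the 3 tables. The series holds RNA sequencing of 31 samples of Panc02 cells, a murine pancreatic adenocarcinoma line. In the conditioned medium experiment, WT spheroids in Matrigel were kept in serum-containing DMEM (Ctrl), in medium conditioned by unstimulated macrophages (M0-CM) or in medium conditioned by macrophages given IFNγ and lipopolysaccharide (M1-CM), with 3 samples each. In the culture and genotype experiment, WT and *Cxcl5*-/- cells were grown in 2D or as 3D spheroids in Matrigel, again with 3 samples each. In the overexpression experiment, all cells were in 3D, with 2 samples of WT, 2 of *Cxcl5*-/-, 3 of *Cxcl5*-/- cells overexpressing a stabilised mutant *Hif1a* (*Hif1a* OE) and 3 of *Cxcl5*-/- cells overexpressing *Myc* (*Myc* OE). The labels of this experiment give the line a different number in each sample, and the name Panc02 follows the paper. *Cxcl5* was targeted with a CRISPR/Cas9 lentiviral vector under puromycin selection, and the sources do not say whether the *Cxcl5*-/- line is a clone or a pool, so a trait of that line and an effect of *Cxcl5* cannot be told apart. The *Hif1a* and *Myc* lines were made from *Cxcl5*-/- cells with retroviral vectors and also selected, and no empty-vector group was analysed here.

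The EGF family ligands are made as membrane-bound precursors that proteases such as ADAM17 and ADAM10 cut free. Amphiregulin (*Areg*), epiregulin (*Ereg*), heparin-binding EGF-like growth factor (*Hbegf*), transforming growth factor alpha (*Tgfa*) and betacellulin (*Btc*) all bind EGFR, and some of them bind ERBB4 as well. ERBB2 has no known ligand of its own and pairs with the other receptors, and ERBB3 has a weak kinase and binds neuregulins. Active receptors signal through RAS to ERK and AKT, and ligand transcripts are themselves induced by this signalling, which makes the family known for autocrine loops in epithelial and pancreatic tumours.

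Total counts per sample ran from 41542533 to 78498230. Levels are given as CPM, counts scaled to the TMM-adjusted depth of a library, which set 1 gene side by side between samples, and levels of different genes are compared as CPM per kb of exonic length. A difference was called at an adjusted p under 0.05 by edgeR's quasi-likelihood test, and in the conditioned media also needed an absolute log2 fold change above 1. The labels call these pancreatic cancer cells. The epithelial markers *Epcam* and *Cdh1* were at 3 counts or fewer in every sample of 9 and 7 of the 11 groups, respectively, while *Krt8*, *Krt18* and the mesenchymal *Vim* and *Fn1* were read in all groups. The ductal *Krt19* was at 3 counts or fewer in every sample of 2D *Cxcl5*-/- and of *Cxcl5*-/- in the overexpression experiment. Markers of macrophages summed to between 1.9 and 25.7 CPM over 6 genes, with *Adgre1* at 3 counts or fewer in every sample of each group except WT of the overexpression experiment. That WT group stood apart in a further way. Counts over 1407 olfactory receptor genes, which these cells are not known to use, came to 0.116 and 0.118 CPM per kb there, against 0.00228 to 0.0293 in the other 29 libraries, and 35921 and 35865 genes there had more than 3 counts, against 18273 to 26302. Fold changes of the members against this group are given below also after that rate was subtracted. Left out are *Tgfa* and, in *Hif1a* OE against WT, all members but *Erbb2* and *Egfr*. For other genes no such values are given.

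The targeted gene was not lower in all *Cxcl5*-/- groups. In 2D, *Cxcl5* was at 45.6, 47.3 and 49.1 CPM in WT and at 37.4, 32.7 and 32.8 in *Cxcl5*-/- (log2 fold change -0.47, SE 0.14, adjusted p = 0.0704). In 3D it was at 28.5, 24.5 and 28.04 CPM in WT but at 65.5, 40.9 and 45.5 CPM in the samples with the 3D *Cxcl5*-/- label (0.91, SE 0.14, adjusted p = 0.000173), so the transcript was higher where the label says knockout. In the overexpression experiment it was at 64.2 and 67.7 CPM in WT and at 36.6 and 40.2 in *Cxcl5*-/- (-0.78, SE 0.14, adjusted p = 0.00107). Counts per gene do not show an edit in the sequence or the protein.

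*Areg* and *Egfr* were the ligand and the receptor with the widest range over the groups, and their upstream sequences are shown for that reason. In RefSeq on GRCm38.p6, 5 of the 8 members were matched to a start site (*Areg*, *Tgfa*, *Btc*, *Egfr* and *Erbb2*). The 250 bases before the start of *Areg* (chr5:91139349-91139598, plus strand) and of *Egfr* (chr11:16751953-16752202, plus strand) are given 5′ to 3′. Capitals mark any match, on either strand, to the cAMP response element TGACGTCA, the AP-1 element TGAGTCA, the hypoxia response core ACGTG, the E-box CACGTG, which contains that core, or TATAAA.
Areg: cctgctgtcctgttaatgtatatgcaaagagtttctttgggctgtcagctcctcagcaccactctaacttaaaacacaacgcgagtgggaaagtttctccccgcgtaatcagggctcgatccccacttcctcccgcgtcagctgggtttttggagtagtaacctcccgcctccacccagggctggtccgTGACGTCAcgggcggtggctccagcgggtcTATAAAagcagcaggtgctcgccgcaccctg
Egfr: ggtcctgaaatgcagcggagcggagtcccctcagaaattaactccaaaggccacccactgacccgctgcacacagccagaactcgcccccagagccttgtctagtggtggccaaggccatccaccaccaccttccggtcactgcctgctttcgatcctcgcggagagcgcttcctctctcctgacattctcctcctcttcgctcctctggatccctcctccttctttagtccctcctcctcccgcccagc
The *Areg* sequence held a complete cAMP response element, which begins 61 bases before the start site, and TATAAA 31 bases before it. Of 27025 RefSeq start sites, 1.56% had the former and 12.9% the latter within 250 bases upstream. AP-1 elements were there in 4.47%, the hypoxia response core in 16.4% and the E-box in 5.93%. None of the 5 motifs was in the 250 bases before *Egfr*, *Tgfa*, *Btc* or *Erbb2*. A match is a description of letters and says nothing of binding, and a missing match covers this window alone.

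The ligand genes are not spread evenly over the genome. In GENCODE M21 (GRCm38), *Ereg* (chr5:91074622-91093646, plus strand), *Areg* (chr5:91139599-91148432, plus strand) and *Btc* (chr5:91357261-91402994, minus strand) lie in the same stretch of chromosome 5 as the CRISPR target *Cxcl5* (chr5:90759360-90761624, plus strand), with start sites 315.3, 380.2 and 643.6 kb from that of *Cxcl5*. *Tgfa* (chr6:86195223-86275719, plus strand), *Hbegf* (chr18:36504927-36515805, minus strand), *Egfr* (chr11:16752203-16918158, plus strand), *Erbb2* (chr11:98412470-98437716, plus strand) and *Erbb3* (chr10:128567523-128589652, minus strand) lie elsewhere.

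In the culture and genotype experiment, *Areg* and *Ereg* were the most abundant members in 2D WT cells and *Areg* in 3D WT cells. Per kb of exon, 2D WT cells had *Areg* at 14.4 ± 0.634 (SD, n = 3) and *Ereg* at 13.3 ± 0.848 CPM per kb, whose samples overlapped, followed by *Hbegf* at 5.64 ± 0.482 and *Erbb2* at 5.21 ± 0.376, which overlapped too. *Btc* (0.72 ± 0.0313), *Erbb3* (0.139 ± 0.0294), *Tgfa* (0.0484 ± 0.0124) and *Egfr* (0.022 ± 0.00846) came after, each apart from the next. In 3D WT cells *Areg* stood alone at 46.3 ± 2.59 CPM per kb. Below it came *Ereg* (11.7 ± 1.52) and *Hbegf* (10.8 ± 0.756), whose samples overlapped, and *Egfr* was at 0.648 ± 0.105. The order was another in the samples with the 3D *Cxcl5*-/- label, where *Erbb2* was highest at 4.46 ± 0.858 CPM per kb and *Areg* was at 1.28 ± 0.259, below *Ereg*, *Egfr* and *Hbegf*. In the 3D *Cxcl5*-/- cells of the overexpression experiment, *Egfr* came first at 6.21 ± 0.598 (SD, n = 2) and *Areg* was at 1.74 ± 0.0745.

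**Figure D1:**
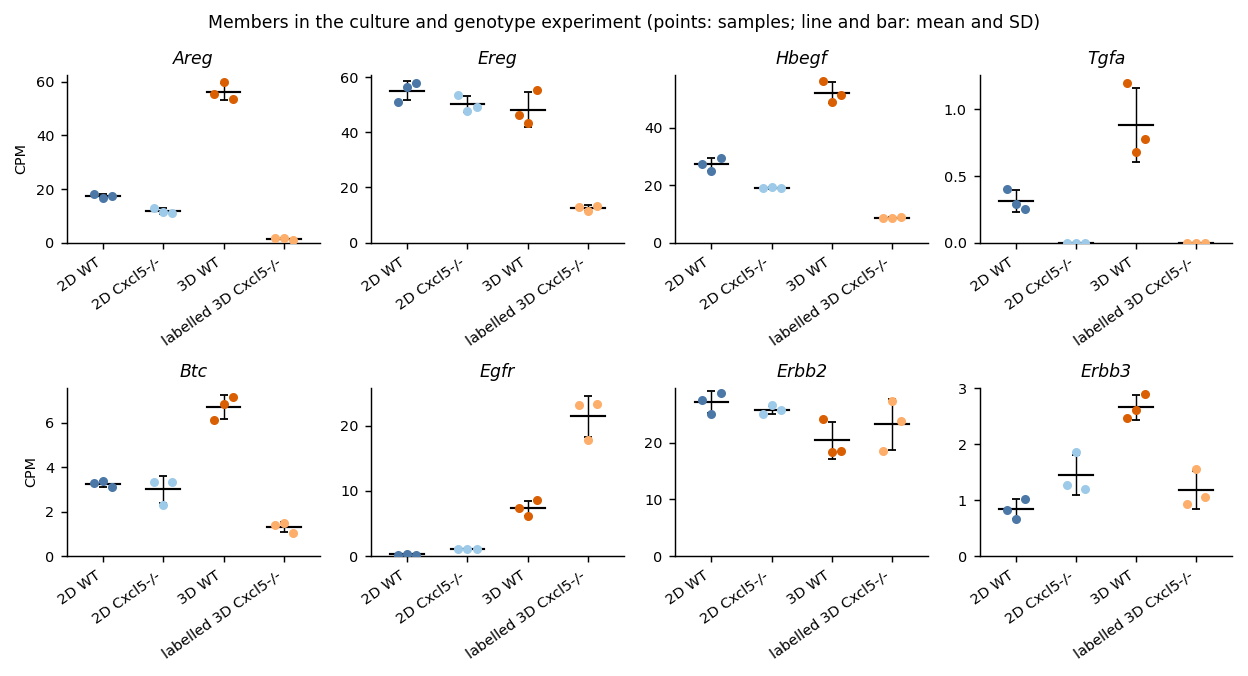
CPM of each member (y axis, from 0, own scale per gene) in the 4 groups of the culture and genotype experiment. Points are samples, the line is the mean and the bar the SD (n = 3). *Areg*, *Hbegf* and *Btc* peak in 3D WT and are lowest in the samples with the 3D *Cxcl5*-/- label, where *Egfr* is highest and *Tgfa* is at 0.

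How the family differed between 3D spheroids in Matrigel and 2D culture was read from WT cells. With growth as spheroids, 4 of the 5 ligands and *Egfr* and *Erbb3* rose and *Erbb2* fell, so 6 members were called higher, where 22.2% of all genes tested were, and 1 lower, where 22.0% were. *Areg* was at 18.3, 16.8 and 17.5 CPM in 2D WT and at 55.3, 59.7 and 53.6 when grown in 3D (log2 fold change 1.68, SE 0.12, adjusted p = 1.12e-07). *Hbegf* went from 27.4, 24.9 and 29.5 CPM to 56.2, 49.0 and 51.4 (0.94, SE 0.09, adjusted p = 9.9e-07). Every 3D sample of both ligands lay above every 2D sample. *Btc* was at 3.27, 3.38 and 3.10 CPM in 2D and at 6.13, 6.87 and 7.18 in 3D (1.05, SE 0.19, adjusted p = 0.000392). *Tgfa* was near the limit of reading, with 21, 20 and 18 counts in 2D and 62, 29 and 42 in 3D (1.497, SE 0.50, adjusted p = 0.0359), and its call was lost in 9 of the 14 alternatives run. *Ereg* was at 51.1, 56.3 and 57.7 CPM in 2D and 46.1, 43.2 and 55.3 in 3D, with overlapping samples (-0.19, SE 0.10, adjusted p = 0.143). It was called lower with library totals (-0.42, adjusted p = 0.00176) or without 3D WT replicate 3 (-0.28, adjusted p = 0.0432).

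Among the receptors, *Egfr* had the largest difference of any member between 2D and 3D WT cells. It went from 0.193, 0.36 and 0.195 CPM to 7.31, 6.17 and 8.54 (log2 fold change 4.85, SE 0.23, adjusted p = 2.95e-09). Its 2D WT libraries held 10, 25 and 14 counts, near the limit of reading, so the size of this fold change is uncertain. *Erbb3* went from 0.828, 0.662 and 1.02 CPM to 2.46, 2.62 and 2.90 (1.67, SE 0.27, adjusted p = 0.000189). *Erbb2* moved the other way and by little, from 27.6, 25.0 and 28.8 CPM to 24.2, 18.4 and 18.6 (-0.41, SE 0.14, adjusted p = 0.0274). This call held in 9 of the 15 alternatives run, with adjusted p up to 0.134. It was lost with DESeq2 size factors, among others (-0.34, adjusted p = 0.0673). Olfactory receptor counts per kb were also higher in 3D WT (0.0186 to 0.0293) than in 2D WT (0.00272 to 0.0031), and with them subtracted *Egfr*, *Erbb3*, *Areg*, *Hbegf* and *Btc* kept their calls. The summed epithelial and ductal markers went from 543.8 to 589.8 CPM in 2D WT to 852.2 to 1096 in 3D WT and the 4 mesenchymal markers from 3868 to 4016 to 6446 to 7281, and their part in the result was not tested.

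From 2D to 3D, *Areg*, *Hbegf* and *Btc* fell in the *Cxcl5*-/- line, where they had risen in WT, and *Ereg*, not called in WT, fell too. In the samples with the 3D *Cxcl5*-/- label, against 2D *Cxcl5*-/-, *Areg*, *Ereg*, *Hbegf* and *Btc* were lower (log2 fold changes -2.93, -1.99, -1.13 and -1.19, with SE 0.14, 0.11, 0.09 and 0.19), and *Egfr* was higher (4.37, SE 0.21, adjusted p = 1.62e-09). This made 4 members lower, where 28.2% of genes were, and 1 higher, where 28.7% were. *Erbb2* (-0.15, adjusted p = 0.367) and *Erbb3* (-0.29, adjusted p = 0.361) were not called, and *Tgfa* was at 0 counts in all 6 libraries.

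In 2D *Egfr* was higher and *Areg* and *Hbegf* were lower in *Cxcl5*-/- than in WT. *Egfr* was at 1.04, 1.01 and 1.05 CPM in *Cxcl5*-/- against 0.193, 0.36 and 0.195 in WT (log2 fold change 2.03, SE 0.25, adjusted p = 0.000127), and its 3 *Cxcl5*-/- samples all lay above the WT samples. The WT values rest on 10, 25 and 14 counts. *Areg* was at 13.0, 11.6 and 10.9 CPM in *Cxcl5*-/- (-0.56, SE 0.12, adjusted p = 0.00973) and *Hbegf* at 19.1, 19.3 and 18.9 (-0.51, SE 0.09, adjusted p = 0.0017), both below all WT samples. The call of *Areg* went over the threshold without WT replicate 1 (adjusted p = 0.0544) or without *Cxcl5*-/- replicate 2 or 3 (0.0556 and 0.0809). *Tgfa* had 0 counts in each *Cxcl5*-/- library and was at least 6.79-fold higher in WT, against a floor of 3 counts per library. Because *Tgfa* passed the filter on low counts through WT alone, it is left out of the count. Of the other members 2 were lower, where 3.17% of genes were, and 1 was higher, where 3.86% were. *Ereg* (-0.13), *Btc* (-0.12), *Erbb2* (-0.07) and *Erbb3* (0.79, SE 0.27, adjusted p = 0.111) were not called.

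In 3D *Areg*, *Hbegf*, *Ereg* and *Btc* were lower in the samples with the *Cxcl5*-/- label than in WT, and *Tgfa* was at 0 there. *Areg* was at 1.77, 1.70 and 1.19 CPM there, against 55.3, 59.7 and 53.6 in WT (log2 fold change -5.18, SE 0.15, adjusted p = 5.85e-11). *Hbegf* was at 8.69, 8.63 and 8.84 CPM (-2.58, SE 0.09, adjusted p = 3.66e-10). *Ereg*, not called between 3D and 2D in WT cells, was at 13.1, 11.4 and 13.3 CPM against 46.1, 43.2 and 55.3 (-1.94, SE 0.11, adjusted p = 1.28e-08). *Btc* was at 1.40, 1.49 and 1.05 CPM (-2.35, SE 0.20, adjusted p = 5.88e-07). The samples of the groups did not overlap for *Areg*, *Hbegf*, *Ereg* or *Btc*, and the share of such genes among all was not counted. *Tgfa* had 0 counts in all 3 of these libraries and was at least 18.3-fold higher in 3D WT.

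The receptors differed among themselves. *Egfr* was higher, at 23.2, 17.8 and 23.3 CPM against 7.31, 6.17 and 8.54 in WT (log2 fold change 1.55, SE 0.18, adjusted p = 1.16e-05). *Erbb3* was lower, at 0.931, 1.56 and 1.05 CPM against 2.46, 2.62 and 2.90 (-1.17, SE 0.27, adjusted p = 0.00267). *Erbb2*, at 18.5, 27.3 and 23.9 CPM, overlapped with WT (0.19, SE 0.14, adjusted p = 0.296), although it was called with library totals in place of TMM (0.59, adjusted p = 0.0124). Leaving out *Tgfa*, which passed the filter through WT alone, 5 members were lower, where 25.3% of genes were, and 1 was higher, where 19.7% were. The 6 epithelial and ductal markers summed to 214.2 to 232.8 CPM in the samples with the 3D *Cxcl5*-/- label and to 852.2 to 1096 in 3D WT, and their part in the result was not tested. *Epcam* and *Cdh1* were at 3 counts or fewer in every one of the former libraries. In bulk samples, fewer cells of a type and less RNA per cell cannot be told apart.

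Whether the genotype difference itself changed with culture was tested as an interaction. It was negative for 5 members, where 16.1% of genes were, and positive for 0, where 11.1% were. The genotype effect changed from 2D to 3D by -4.62 for *Areg* (SE 0.18, adjusted p = 7.65e-09), -2.24 for *Btc* (SE 0.27), -2.07 for *Hbegf* (SE 0.12), -1.96 for *Erbb3* (SE 0.38) and -1.80 for *Ereg* (SE 0.14). For *Egfr* it was -0.48 (SE 0.30, adjusted p = 0.268) and for *Erbb2* 0.26 (SE 0.20, adjusted p = 0.362). Without 2D WT replicate 2, the value for *Egfr* was -0.90 (adjusted p = 0.0493), so whether *Egfr* differed more between genotypes in 2D hung on that library. No value is given for *Tgfa*, which had no counts in either *Cxcl5*-/- group.

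**Figure D2:**
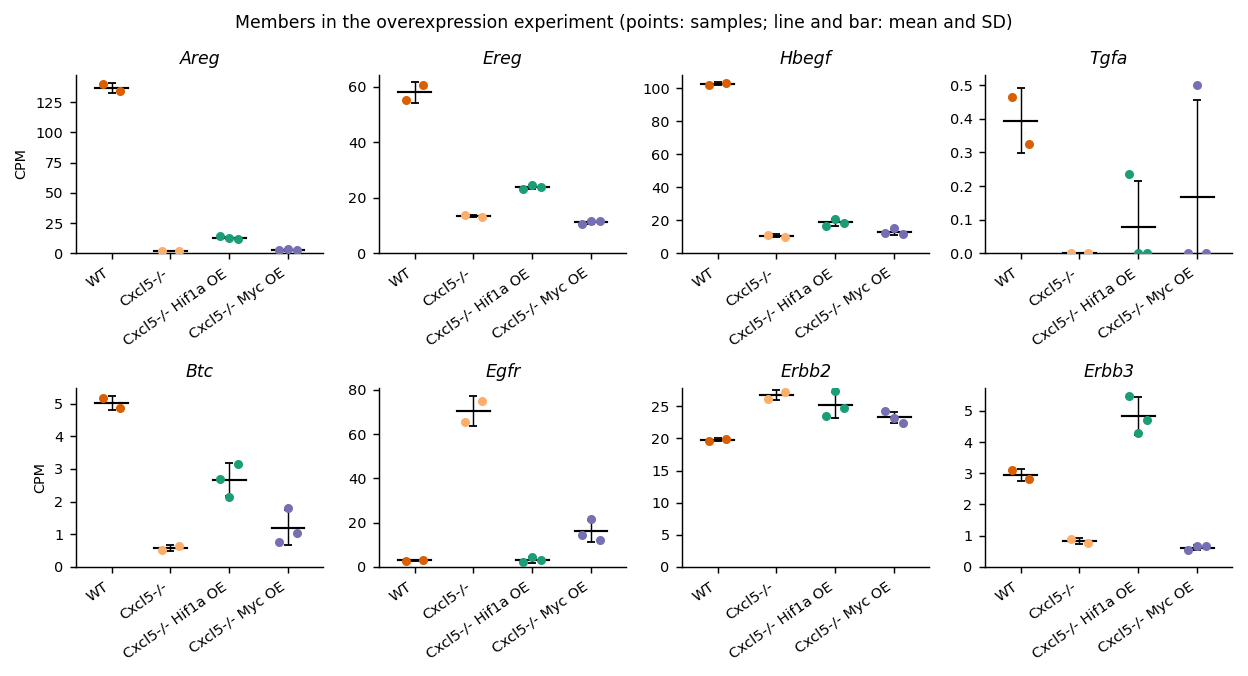
CPM of each member (y axis, from 0, own scale per gene) in the 4 groups of the overexpression experiment, all in 3D. Points are samples, the line is the mean and the bar the SD (n = 2 for WT and *Cxcl5*-/-, n = 3 for *Hif1a* OE and *Myc* OE). *Areg* and *Hbegf* are highest in WT, *Egfr* is highest in *Cxcl5*-/-, and *Erbb3* is highest in *Hif1a* OE.

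A further set of 3D samples allowed the genotypes to be compared again, now with *Cxcl5* transcript lower in *Cxcl5*-/-. *Areg* was at 139.8 and 134.1 CPM in WT and at 2.18 and 2.05 in *Cxcl5*-/- (log2 fold change -6.02, SE 0.19, adjusted p = 1.31e-08). *Hbegf* was at 101.9 and 103.2 CPM in WT and at 11.2 and 9.97 in *Cxcl5*-/- (-3.28, SE 0.15, adjusted p = 1.02e-07). *Ereg* was at 55.4 and 60.7 CPM in WT and at 13.8 and 13.2 in *Cxcl5*-/- (-2.10, SE 0.10, adjusted p = 1.26e-07). The 3 most abundant ligands were thus lower in *Cxcl5*-/- in these samples as in the samples with the 3D *Cxcl5*-/- label, and *Btc* was too, at 5.19 and 4.87 CPM in WT and 0.519 and 0.629 in *Cxcl5*-/- (-3.12, SE 0.41, adjusted p = 0.000117). *Tgfa* had 21 and 15 counts in WT and 0 in both *Cxcl5*-/- libraries, with an adjusted p of 0.108. Its WT level of 0.0714 and 0.0503 CPM per kb was below the olfactory receptor rate of those libraries, 0.116 and 0.118. So no fold difference is given for *Tgfa* here.

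*Egfr* again went the other way, from 2.80 and 2.91 CPM in WT to 65.6 and 75.1 in *Cxcl5*-/- (log2 fold change 4.62, SE 0.37, adjusted p = 3.27e-06). *Erbb3* was at 3.09 and 2.80 CPM in WT and at 0.892 and 0.751 in *Cxcl5*-/- (-1.84, SE 0.27, adjusted p = 0.000264). *Erbb2* was at 19.6 and 19.98 CPM in WT and at 26.2 and 27.3 in *Cxcl5*-/- (0.43, SE 0.10, adjusted p = 0.00609), and this call was lost without WT replicate 1 (adjusted p = 0.0587) or *Cxcl5*-/- replicate 2 (0.0543). Together 5 members were lower, where 24.3% of genes were, and 2 were higher, where 17.6% were. With the olfactory receptor rate subtracted from all libraries, the log2 fold changes were -6.22 for *Areg*, -2.29 for *Ereg*, -3.47 for *Hbegf*, -3.32 for *Btc*, 5.32 for *Egfr*, 0.28 for *Erbb2* and -1.80 for *Erbb3*, and all 7 were called. The median over all genes was -0.30 before this subtraction and 0.01 after it. The summed epithelial and ductal markers were at 854.7 to 901.8 CPM in WT, 285.4 to 300.1 in *Cxcl5*-/-, 677.4 to 798.6 in *Hif1a* OE and 263.1 to 308.2 in *Myc* OE. The 4 mesenchymal markers summed to 7829 to 7965 CPM in WT, 12930 to 12960 in *Cxcl5*-/-, 5168 to 6800 in *Hif1a* OE and 3029 to 3446 in *Myc* OE. The part of either list in these results was not tested.

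Overexpression of *Hif1a* in *Cxcl5*-/- cells went with a difference in 6 members, each in the direction of WT. The *Hif1a* transcript was at 258.4, 295.8 and 243.0 CPM, against 143.9 and 133.5 in *Cxcl5*-/- (log2 fold change 0.94, SE 0.10, adjusted p = 2.99e-05). *Areg* rose to 14.0, 12.4 and 12.3 CPM (2.61, SE 0.17, adjusted p = 1.01e-06), *Btc* to 2.69, 2.15 and 3.16 (2.21, SE 0.38, adjusted p = 0.000798) and *Ereg* to 23.4, 24.8 and 23.8 (0.83, SE 0.09, adjusted p = 3.67e-05). *Hbegf* rose to 16.8, 21.1 and 18.6 CPM (0.83, SE 0.13, adjusted p = 0.000507). These 4 ligands were above both *Cxcl5*-/- samples in every *Hif1a* OE sample. *Egfr* fell to 1.92, 4.53 and 3.18 CPM (-4.45, SE 0.31, adjusted p = 1.44e-06), and *Erbb3* rose to 5.49, 4.30 and 4.70 CPM (2.55, SE 0.26, adjusted p = 1.89e-05). So 5 members were higher, where 20.5% of genes were, and 1 was lower, where 15.0% were. *Erbb2* was not called (-0.08, SE 0.09, adjusted p = 0.515), and *Tgfa* was read in 1 of the 3 libraries, with 12 counts.

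Against WT, *Areg*, *Hbegf* and *Ereg* were lower in *Hif1a* OE cells, and *Btc* and *Egfr* were not called. *Areg* stood at -3.41 on the log2 scale (SE 0.14, adjusted p = 2.84e-07), *Hbegf* at -2.45 (SE 0.13) and *Ereg* at -1.28 (SE 0.09), while *Btc* was at -0.91 (SE 0.33, adjusted p = 0.0626). *Egfr* differed by 0.17 (SE 0.33, adjusted p = 0.736), with overlapping samples. This makes 3 members lower, where 10.3% of genes were, and 2 higher, where 13.9% were. Those 2 were *Erbb3* (0.71, adjusted p = 0.0462) and *Erbb2* (0.35, adjusted p = 0.0212), and these calls held in 3 and 5 of 14 alternatives, with adjusted p up to 0.249 and 0.204. The call of *Erbb3* was lost with any 1 library of either group left out. With the olfactory receptor rate subtracted, *Erbb2* was not called (0.17, adjusted p = 0.204) and *Egfr* was at 0.74 (adjusted p = 0.175).

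*Myc* overexpression in the same line moved *Egfr* and left most ligands near the *Cxcl5*-/- level. *Myc* was at 548.5, 525.2 and 396.9 CPM against 22.3 and 20.02 in *Cxcl5*-/- (log2 fold change 4.54, SE 0.16, adjusted p = 1.93e-08), and *Hif1a* was higher too, by 0.90 (SE 0.10, adjusted p = 3.08e-05). *Egfr* fell to 14.5, 21.6 and 11.9 CPM (-2.14, SE 0.28, adjusted p = 8.88e-05). *Btc* was at 0.761, 1.80 and 1.04 CPM (1.06, SE 0.38, adjusted p = 0.044) and *Ereg* at 10.5, 11.6 and 11.5 (-0.27, SE 0.09, adjusted p = 0.0342). Both of the latter calls were lost with either *Cxcl5*-/- replicate left out, where *Btc* had an adjusted p of 0.213 or 0.113 and *Ereg* of 0.242 or 0.118, which leaves *Egfr* as the member called in each of these fits. *Areg* was at 2.50, 3.70 and 2.45 CPM (0.44, SE 0.17, adjusted p = 0.0669) and *Hbegf* at 12.5, 15.2 and 11.6 (0.31, SE 0.13, adjusted p = 0.0918). For these ligands every *Myc* OE sample lay above both *Cxcl5*-/- samples. *Areg* stayed uncalled in 11 and *Hbegf* in 13 of the 14 alternatives run. *Erbb2* (-0.20) and *Erbb3* (-0.41) were not called, and *Tgfa* was read in 1 library of 3, with 23 counts. So 1 member was higher, where 21.6% of genes were, and 2 were lower, where 18.0% were.

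The 2 overexpressing lines differed from each other in 6 members, though not detectably in *Hif1a* transcript, at a mean of 258.2 CPM in *Myc* OE and 265.7 in *Hif1a* OE (-0.04, SE 0.09, adjusted p = 0.826). Against WT, at 313.8 CPM, *Hif1a* OE stood at -0.24 for *Hif1a* (adjusted p = 0.0999). In *Myc* OE against *Hif1a* OE, *Erbb3* (log2 fold change -2.96, SE 0.23, adjusted p = 4.92e-06), *Areg* (-2.17, SE 0.14, adjusted p = 1.59e-06), *Ereg* (-1.10, SE 0.08), *Btc* (-1.15, SE 0.31, adjusted p = 0.0224) and *Hbegf* (-0.52, SE 0.12) were lower and *Egfr* was higher (2.31, SE 0.28, adjusted p = 0.000145). These are 5 members lower, where 9.73% of genes were, and 1 higher, where 9.54% were. The call of *Btc* was lost in 4 of the 6 fits that left out a library, with adjusted p up to 0.0776. Against WT, *Myc* OE had *Areg* at -5.58 (SE 0.16), *Hbegf* at -2.97 (SE 0.13), *Ereg* at -2.37 (SE 0.09), *Erbb3* at -2.25 (SE 0.24) and *Btc* at -2.06 (SE 0.33), and *Egfr* at 2.48 (SE 0.33, adjusted p = 0.000234). That is 5 members lower, where 14.7% of genes were, and 1 higher, where 17.1% were, and *Erbb2* was not called (0.23, adjusted p = 0.0792). With the olfactory receptor rate subtracted, *Egfr* was at 3.15 (adjusted p = 7.01e-05), *Areg* at -5.80, *Hbegf* at -3.18, *Ereg* at -2.59, *Erbb3* at -2.41, *Btc* at -2.24 and *Erbb2* at 0.06, with the same members called.

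**Figure D3:**
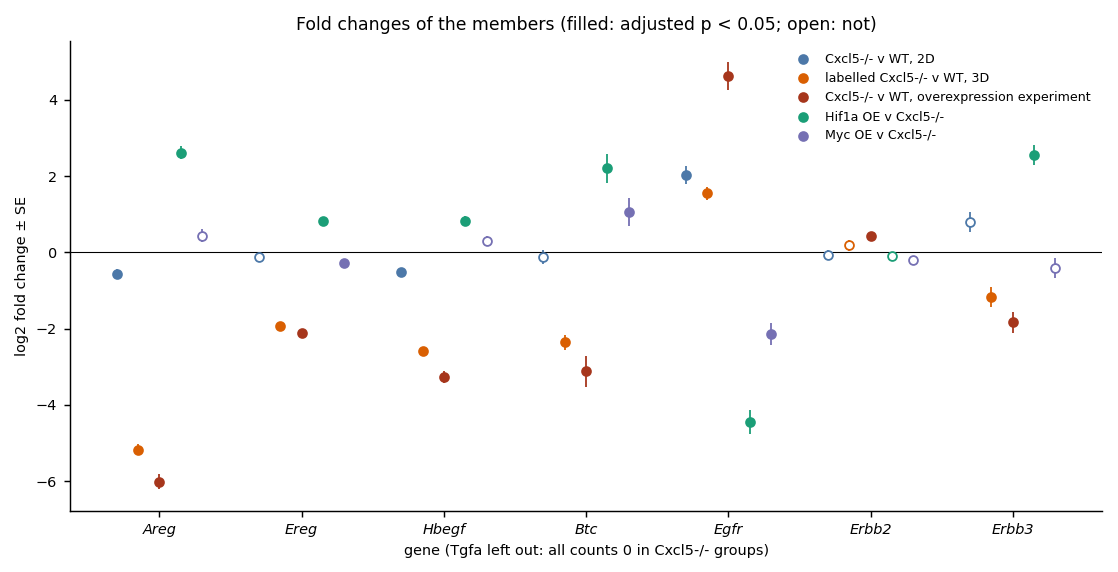
Log2 fold change (y axis) with its SE for 7 members in 5 comparisons, filled where the adjusted p was under 0.05. *Areg* runs from -6.02 in *Cxcl5*-/- against WT of the overexpression experiment to 2.61 in *Hif1a* OE against *Cxcl5*-/-, *Egfr* runs the other way, and *Erbb2* stays within 0.43 of 0. Comparisons of the overexpression experiment share the *Cxcl5*-/- samples.

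In the conditioned media, none of the members was called by edgeR. Of the 8, 7 passed the filter on low counts, and *Tgfa* had 3 counts in 1 Ctrl library and 0 in the other 8. In M1-CM against Ctrl the count was 0, where 0.0156% of genes were called, with 0 members at an unadjusted p under 0.05 and 0 called by DESeq2. In M1-CM against M0-CM it was 0, where 0.0156% were, with *Areg* alone under an unadjusted 0.05. In M0-CM against Ctrl it was 0, where 0% were, with *Btc* alone. DESeq2 called 0 members in these as well. *Areg* was at 15.9, 7.21 and 16.9 CPM in Ctrl, 18.3, 16.4 and 26.7 in M0-CM and 8.23, 8.67 and 15.8 in M1-CM, so all M1-CM samples lay below all M0-CM samples (log2 fold change -0.91, SE 0.37, adjusted p = 0.989). *Btc* was at 1.92, 3.53 and 4.32 CPM in Ctrl and at 3.48, 8.37 and 7.23 in M0-CM (0.97, SE 0.42, adjusted p = 1). *Cxcl5* was at 78.05, 117.4 and 107.1 CPM in Ctrl and at 663.5, 719.0 and 662.3 in M1-CM (2.76, SE 0.17, adjusted p = 0.000474), while the ligand genes near it on chromosome 5 were not called.

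**Figure D4:**
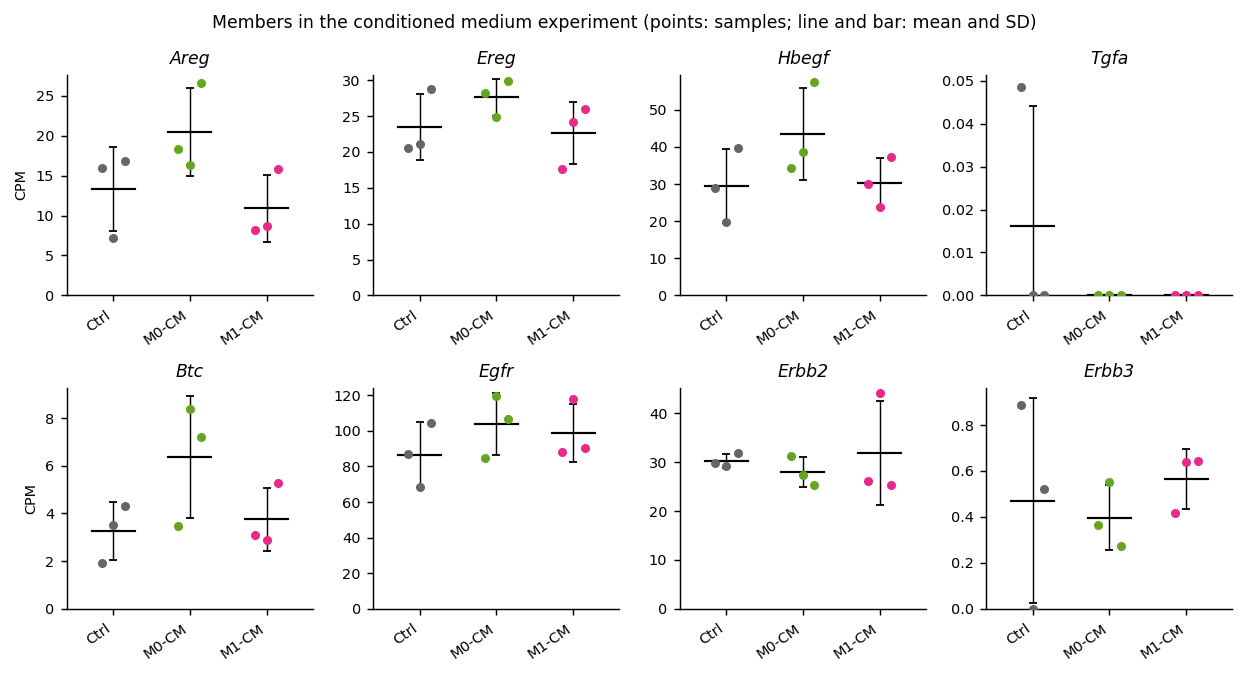
CPM of each member (y axis, from 0, own scale per gene) in Ctrl, M0-CM and M1-CM spheroids. Points are samples, the line is the mean and the bar the SD (n = 3). The 3 groups overlap for most members, *Egfr* lies between 68.2 and 119.9 CPM, and *Tgfa* is at or near 0.

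*Egfr* in these spheroids was at 86.8, 68.2 and 104.6 CPM in Ctrl, 84.9, 119.9 and 106.8 in M0-CM and 87.9, 117.8 and 90.6 in M1-CM. It was thus far above the 6.17 to 8.54 CPM of 3D WT cells in the culture and genotype experiment and the 2.80 and 2.91 CPM of WT in the overexpression experiment, although all 3 are WT cells in Matrigel. *Areg* in Ctrl, at 7.21 to 16.9 CPM, was below those same WT groups, at 53.6 to 59.7 and at 134.1 and 139.8 CPM. Samples labelled 3D *Cxcl5*-/- in those experiments had *Egfr* at 17.8 to 23.3 and at 65.6 and 75.1 CPM, below or within the range of Ctrl. Their *Areg*, at 1.19 to 1.77 and at 2.05 and 2.18 CPM, was below Ctrl. The tables were scaled separately and differ in medium, so these levels are set side by side with no test. *Ereg* in the conditioned media lay between 17.7 and 29.8 CPM, *Hbegf* between 19.8 and 57.6, *Erbb2* between 25.3 and 44.1, and *Erbb3* between 0 and 0.888 with 1 Ctrl library listed at 0.

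The other parts of the pathway were read from lists of its genes. The sheddases *Adam10* and *Adam17*, which cut ligand precursors, and their partners *Rhbdf1* and *Rhbdf2*, which carry ADAM17 to the surface, were all tested. In the samples with the 3D *Cxcl5*-/- label against 3D WT, *Adam10* was higher (log2 fold change 0.76, SE 0.14) and *Rhbdf2* and *Adam17* were lower (-1.32, SE 0.13 and -0.38, SE 0.07), with a list median of -0.25 beside -0.04 for all genes. In the overexpression experiment *Cxcl5*-/- cells likewise had more *Adam10* (0.89) and less *Rhbdf2* (-0.72) and *Adam17* (-0.28). *Hif1a* OE had *Rhbdf2* at 0.87 and *Adam10* at -0.58 against *Cxcl5*-/-, and *Myc* OE had *Rhbdf2* at -0.50 and *Adam10* at -0.93. Of the other ligands, *Nrg1*, which binds ERBB3 and ERBB4, was lower in the samples with the 3D *Cxcl5*-/- label (-0.47, SE 0.11, 51.1 against 70.8 CPM) and lower in *Hif1a* OE and *Myc* OE than in *Cxcl5*-/- (-0.49 and -0.67), but was not called in *Cxcl5*-/- against WT of the overexpression experiment (-0.0018, SE 0.14, adjusted p = 0.994). The receptor *Erbb4* had a mean of 1.15 CPM in WT of the overexpression experiment, the group with the raised olfactory receptor counts, and 0 in its *Cxcl5*-/- libraries. Over the 12355 exonic bases of *Erbb4*, that WT level was below the olfactory receptor rate per kb.

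Transcripts known to be induced by ERK were counted next. Of 9 (*Fos*, *Egr1*, *Ier3*, *Phlda1*, *Etv4*, *Etv5*, *Plaur* and others), 7 were lower and 2 higher in the samples with the 3D *Cxcl5*-/- label than in 3D WT (25.3% and 19.7% of all genes), with a median log2 fold change of -1.82 beside -0.04 for all genes. *Ier3*, an early response gene, was at a mean of 34.1 against 254.6 CPM (-2.90, SE 0.17) and *Fos* at 1.52 against 9.57 (-2.65, SE 0.21), while *Phlda1* (1.44, SE 0.18) and *Egr1* (1.05, SE 0.25) were higher. In the overexpression experiment 6 of the 9 were lower and 2 higher in *Cxcl5*-/- than in WT (24.3% and 17.6% of all genes, median -1.63 beside -0.30), with *Etv4* (-3.63, SE 0.27) and *Ier3* (-3.56, SE 0.13) falling most and *Egr1* (2.71, SE 0.19) and *Phlda1* (1.93, SE 0.15) again higher. Against *Cxcl5*-/-, 5 of the 9 were higher and 2 lower in *Hif1a* OE (20.5% and 15.0% of all genes, median 0.66 beside 0.16), and 5 higher and 2 lower in *Myc* OE (21.6% and 18.0% of all genes, median 0.68 beside 0.11). In both, *Ier3* rose (1.87 and 2.18) and *Egr1* and *Phlda1* fell. In 2D 4 of the 9 were lower and 0 higher in *Cxcl5*-/- (3.17% and 3.86% of all genes, median -0.54 beside -0.02).

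Inhibitors that ERK signalling induces or that turn receptors over were mixed. Of 14, 12 were tested in the culture and genotype experiment, and 6 were lower and 2 higher in the samples with the 3D *Cxcl5*-/- label than in 3D WT (25.3% and 19.7% of all genes, median -0.18 beside -0.04). *Spry2*, a Sprouty inhibitor of the pathway, was at a mean of 4.15 against 19.1 CPM (-2.20, SE 0.18) and the ERK phosphatase gene *Dusp5* at 4.49 against 14.9 (-1.73, SE 0.20), while *Cbl*, which ubiquitinates EGFR, was higher (0.66, SE 0.22). In the overexpression experiment 5 of 14 were lower and 6 higher in *Cxcl5*-/- than in WT (24.3% and 17.6% of all genes), with *Dusp5* at -3.12 (SE 0.17) and *Lrig2*, related to a known negative regulator of ERBB receptors, at 1.02 (SE 0.13). Against *Cxcl5*-/-, 8 of 14 were lower and 2 higher in *Hif1a* OE (15.0% and 20.5% of all genes, median -0.62 beside 0.16). In *Myc* OE 9 were lower and 1 higher (18.0% and 21.6% of all genes, median -0.63 beside 0.11). Unlike most of the list, *Dusp5* rose in *Hif1a* OE (1.18, SE 0.16) and in *Myc* OE (1.43, SE 0.16). Of 16 adaptors and kinases from receptor to ERK, 7 were higher and 6 lower in the samples with the 3D *Cxcl5*-/- label (19.7% and 25.3% of all genes, median 0.09 beside -0.04), among them the docking protein gene *Gab1* (1.61, SE 0.23) and the MEK gene *Map2k1* (-0.90, SE 0.08). In the conditioned media 0 genes of the shedding, inhibitor, adaptor and ERK lists were called by edgeR, with 2 of them at an unadjusted p under 0.05 in M1-CM against Ctrl, 2 in M1-CM against M0-CM and 0 in M0-CM against Ctrl.

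**Figure D5:**
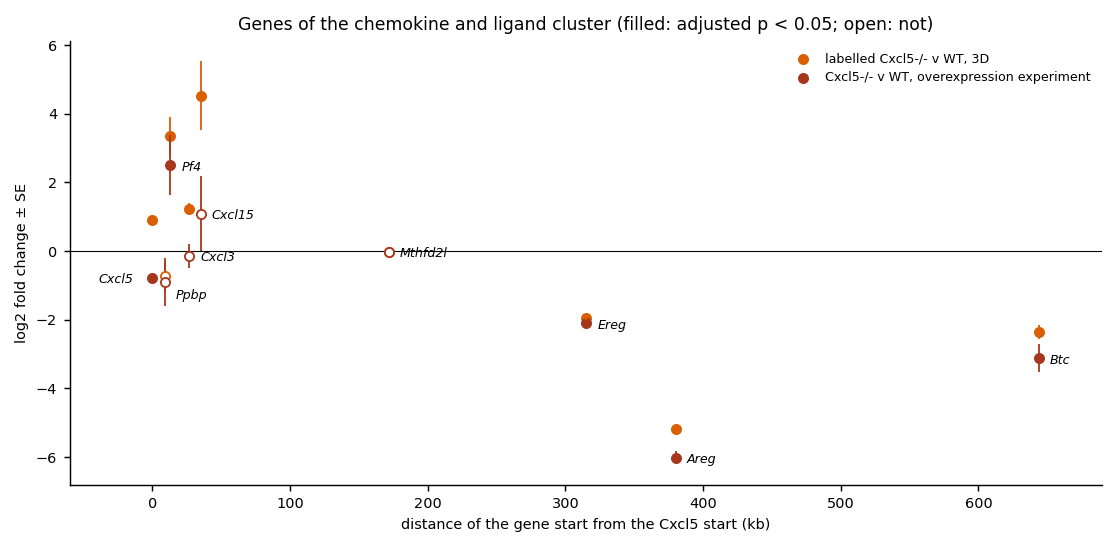
Log2 fold change with its SE (y axis) of genes near *Cxcl5* against the distance of their start from that of *Cxcl5* (x axis, kb), for 2 comparisons of *Cxcl5*-/- with WT in 3D, filled where the adjusted p was under 0.05. Genes with a mean of 0.5 CPM or less in both groups are left out. *Ereg*, *Areg* and *Btc* lie low in both comparisons, and *Mthfd2l*, between them and the chemokines, lies near 0.

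Because 3 ligands lie near the edited gene, 12 genes of that stretch were read, *Cxcl5* and the 3 ligands among them. In the samples with the 3D *Cxcl5*-/- label, 4 of 10 tested were higher and 3 lower (19.7% and 25.3% of all genes, median 0.05 beside -0.04). In *Cxcl5*-/- of the overexpression experiment, 1 of 11 was higher and 5 lower (17.6% and 24.3% of all genes, median -0.91 beside -0.30). No values are given below for *Ppbp*, *Cxcl1* and *Epgn*. *Mthfd2l*, a mitochondrial folate enzyme gene whose start is 171.8 kb from that of *Cxcl5*, differed by -0.03 in the samples with the 3D *Cxcl5*-/- label against 3D WT (SE 0.11, adjusted p = 0.86) and by -0.02 in *Cxcl5*-/- against WT of the overexpression experiment (SE 0.10, adjusted p = 0.894). The chemokine gene *Pf4*, 13.1 kb away, was higher in both (3.35, SE 0.54 and 2.50, SE 0.88). *Cxcl3*, 26.7 kb away, was higher in the former (1.22, SE 0.18, adjusted p = 8.76e-05) and not called in the latter (-0.14, SE 0.34, adjusted p = 0.763). *Cxcl15*, 35.2 kb away, was at 4.53 (adjusted p = 0.005) in the former and at 1.08 (adjusted p = 0.451) in the latter. *Cxcl2*, 144.5 kb away, had 19 and 8 counts in WT of the overexpression experiment and 1 and 0 in *Cxcl5*-/-, and was called lower in *Cxcl5*-/- (adjusted p = 0.0463). That WT group is the one with raised olfactory receptor counts. It did not pass the filter on low counts in the culture and genotype experiment. Of the ligand genes on other chromosomes, *Hbegf* was lower in both comparisons and *Tgfa* was at 0 counts in the *Cxcl5*-/- libraries of both. In WT of the overexpression experiment the level of *Tgfa* was itself below the olfactory receptor rate per kb. Copy number around the edited gene was not measured here.

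Genes whose mean profile over the 11 groups came closest to that of a member were named by the root mean square of the difference in log2 CPM, each table centred on its own mean, among about 13350 genes (13350 or 13351 by member). For *Areg* these were *Ptgs2*, the gene of cyclooxygenase 2, at 0.597, and *Procr*, a protein C receptor gene, at 0.797, against a spread of 1.83 in *Areg* itself. *Ereg* was followed by *Epha2*, an ephrin receptor gene, at 0.112 and *Rasa4* at 0.247 (own spread 0.77), *Hbegf* by *Csrnp1* at 0.224 and *Maff* at 0.279 (0.968), and *Btc* by *Fhl2* at 0.174 and *Maff* at 0.259 (0.884). *Maff*, a small Maf factor gene, was thus named for a pair of ligands. *Erbb3* was followed by *Pkp3*, a desmosome gene, at 0.246 and *9930111J21Rik1* at 0.328 (0.852), and *Egfr* by 2 predicted genes, *Gm5860* and *Gm47865*, at 0.631 and 0.694 (1.86). The spread of *Erbb2* itself was 0.142, the lowest of the 7 members compared in this way.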

How the data were processed

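RNA from Panc02 cells was sequenced after stranded total RNA preparation, and the deposited values are gene counts in 3 tables, made by the authors with HISAT2 and StringTie on mm10, per the labels. Whether counting used strand is not given in the sources used here. The members and gene lists were chosen with earlier results of these data known. Groups came from the sample labels. Counts were tested with edgeR 4.0.16 (R 4.3.3), with TMM scaling, filterByExpr by group and a quasi-likelihood fit over all groups of a table, and p-values were adjusted by Benjamini-Hochberg over the 19207, 21367 and 28730 genes tested in the conditioned medium, culture and genotype, and overexpression tables. SE was the absolute log2 fold change over the square root of F. A count of 3 per library was the floor. Exonic lengths and positions came from GENCODE M21 on GRCm38, and upstream sequences from RefSeq on GRCm38.p6. Besides the members, up to 2 genes per direction of each list were named per comparison, those most changed among calls whose groups did not overlap. The share of all genes whose groups did not overlap was not counted in any comparison. Values of such genes in other comparisons, *Mthfd2l*, *Cxcl3* and *Erbb4* were added after their values were seen.

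The study's methods speak of biological replicates in independent experiments in general, and the labels do not say whether the sequenced samples of a group came from separate cultures. If they did not, p-values measure a spread that may be technical. Replicate counts differed by more than sampling noise in every pair. Alternatives were DESeq2 1.42.0 size factors and Wald test, library totals, other filters, a fold threshold, a replicate block, fits of the compared groups alone, and leaving out each sample. The fit was checked on simulated data. Subtraction of the olfactory receptor rate per kb from every gene was added after seeing the data. The genes closest in profile to *Erbb2* are not reported here.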

Additional observations from a re-analysis of the deposited data

Results flagged for a closer look

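The genotype effect differed between 3D and 2D culture for 5 members, by an interaction term in edgeR's quasi-likelihood test over 3 samples per group. The difference in log2 fold change was -4.62 for *Areg*, -2.24 for *Btc*, -2.07 for *Hbegf*, -1.96 for *Erbb3* and -1.80 for *Ereg*. The 3D libraries labelled *Cxcl5*-/- in this test had more *Cxcl5* transcript than 3D WT.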

How the results depend on the processing

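Over all alternatives, 1528 member values kept their side of the threshold, 59 lost a call, 16 gained one and 0 reversed. Those kept include all values of the conditioned media, where no member was called in any setting. The cause of the changes was not tested. With an absolute log2 fold change above 1 also required, the members called, *Tgfa* included, went from 4 to 2 for 2D *Cxcl5*-/- against WT and from 5 to 3 for *Hif1a* OE against WT, which had 3 with library totals as well. *Myc* OE against *Cxcl5*-/- went from 3 to 1 without a filter on low counts and to 1 with only the groups compared. Leaving out a library gave 1 to 4 there, 3 to 4 for *Hif1a* OE against WT, 5 to 6 for 3D against 2D WT and 7 for the libraries labelled 3D *Cxcl5*-/- against 3D WT. Replicate numbers were not shown to pair the samples. The mean correlation of same-numbered deviations was 0.0247 in the culture and genotype experiment and 0.00408 in the overexpression experiment. In the conditioned medium experiment it was 0.0369, with pairs from -0.236 to 0.359. With the replicate block, the counts were 6 for 3D against 2D WT, 2 for *Myc* OE against *Cxcl5*-/- and 4 for *Hif1a* OE against WT, and the others did not change. Library totals moved the share of all called genes that were higher from 43.9% to 75.8% for the libraries labelled 3D *Cxcl5*-/- against 3D WT, from 40.9% to 77.1% for the interaction and from 50.2% to 34.7% for 3D against 2D WT. *Tgfa*, at 62 counts or fewer in any library, is limited by depth.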
